A study of Mus musculus with 24 samples.

Results

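The hippocampus is built of fields that differ in their principal neurons, and 10 genes that mark these fields were followed through every library of the series. They were picked by name, as markers of a field, and not by a threshold on their counts. Of the 47593 genes in the count table, 5 of the 10 mark granule cells of the dentate gyrus (Prox1, C1ql2, Dsp, Tdo2 and Calb1), 3 mark pyramidal cells of CA1 (Fibcd1, Wfs1 and Pou3f1) and 2 mark pyramidal cells of CA3 (Bok and Cpne4). Poly(A) RNA of whole hippocampi was sequenced from male C57BL/6J mice of 8 to 12 weeks, in 8 groups of 3 mice. The mice were wild type (WT) or carried a knockout of the Tob gene (Tob-KO) that was not limited to the hippocampus, and were naive or had been fear conditioned with paired tones and footshocks 15 min, 1 h or 3 h earlier. Naive mice had no conditioning, and no group met the conditioning box without the shock.

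Information enters the hippocampus through the dentate gyrus, whose granule cells send mossy fibres to CA3, and CA3 projects to CA1, which sends the output onward. Granule cells, CA3 and CA1 pyramidal cells are all glutamatergic, yet each keeps a gene programme of its own, so a marker that is read in whole tissue follows how much of that field the sample holds as well as how strongly each cell uses the gene. In bulk samples fewer cells of a type and less RNA per cell cannot be told apart, and this holds for every value given here.

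The libraries held 28847989 to 41595972 counts, with a median of 31169386.5, and all 10 markers passed the filter on low counts, as did 19500 genes in all. Raw counts of the markers ran from 113 to 7105, and Tdo2 was the sparsest, with 113 to 238 reads per library against at least 996 for each of the other 9. Libraries of 1 group differed from each other by 3.68 to 22.8 chi-square per degree of freedom over genes, so none was a copy of another. Tob1, the targeted gene, was higher and not lower in the libraries labelled Tob-KO, by 0.56 on the log2 scale (SE 0.04, adjusted p = 4.16e-09 by edgeR's quasi-likelihood test), with 33.9 to 44.5 counts scaled to a common library size (CPM) in the WT libraries and 52.1 to 68.3 in the others. Which part of the gene the knockout allele lacks was not given in the sources used here, so reads from a remaining part cannot be told from those of an intact gene. These libraries are therefore called "labelled Tob-KO", and each genotype direction below rests on the label. Choroid plexus lies against the hippocampus in the ventricle, and 10 choroid plexus genes split the libraries into 14 with summed levels far above those of the other 10. Their summed level ran from 25.6 to 4910 CPM, and none of the 10 genes was at 0 in any library.

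The 5 dentate markers have different jobs. Prox1 is the homeodomain factor that keeps granule cell identity, C1ql2 is a secreted C1q-like protein of mossy fibre synapses, and Dsp encodes desmoplakin, which ties desmosomes to intermediate filaments. Tdo2 is a tryptophan dioxygenase that opens the kynurenine pathway, and Calb1 is calbindin, a calcium buffer that CA1 pyramidal cells and interneurons hold too. Of the CA1 markers, Fibcd1 is a transmembrane receptor for acetylated sugars, Wfs1 is the endoplasmic reticulum protein wolframin and Pou3f1 is a POU homeodomain factor. Of the CA3 markers, Bok belongs to the Bcl2 family of cell death regulators and Cpne4 is a copine, a calcium-dependent membrane-binding protein.

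Prox1 (chromosome 1, 190118035 to 190170714, GRCm38, reverse strand), C1ql2 (chromosome 1, 120340582 to 120343174, forward) and Dsp (chromosome 13, 38151294 to 38198577, forward) are shown because the highest correlations of Prox1 with another marker, given further on, were those with C1ql2 and Dsp. The stretches are the 250 bases before the RefSeq starts (GRCm38.p6), 5′ to 3′ on the gene's strand, at chr1:190170828-190171077 for Prox1, chr1:120340332-120340581 for C1ql2 and chr13:38151044-38151293 for Dsp. Capitals mark the TATA box letters TATAAA on either strand.
Prox1: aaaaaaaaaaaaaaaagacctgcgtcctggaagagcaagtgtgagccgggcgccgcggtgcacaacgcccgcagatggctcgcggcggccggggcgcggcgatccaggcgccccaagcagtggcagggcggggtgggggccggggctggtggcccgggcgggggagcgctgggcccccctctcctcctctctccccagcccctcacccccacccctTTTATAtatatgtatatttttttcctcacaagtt
C1ql2: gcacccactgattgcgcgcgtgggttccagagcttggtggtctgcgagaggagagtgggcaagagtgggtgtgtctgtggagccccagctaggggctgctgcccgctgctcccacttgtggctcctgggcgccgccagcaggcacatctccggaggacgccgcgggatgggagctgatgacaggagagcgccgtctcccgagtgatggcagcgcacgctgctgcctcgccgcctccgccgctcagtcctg
Dsp: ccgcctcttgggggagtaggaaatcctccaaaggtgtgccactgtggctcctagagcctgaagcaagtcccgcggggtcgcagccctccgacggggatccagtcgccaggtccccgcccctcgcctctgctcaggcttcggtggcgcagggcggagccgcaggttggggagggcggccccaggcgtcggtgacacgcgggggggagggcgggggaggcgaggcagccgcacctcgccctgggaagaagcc
The 3 stretches are rich in G and C, at 64.8% for Prox1, 68.8% for C1ql2 and 72.4% for Dsp. Of the 3, the Prox1 window alone holds the TATA letters, on the opposite strand. Promoter windows were matched for 8 of the 10 markers, not for Calb1 and Pou3f1. In windows of the 250 bases before each start, on both strands, TATAAA was found for 2 of the 8 (Prox1 and Tdo2) and in 12.4% of all 32851 windows. The E-box CAGCTG, the cyclic AMP response element TGACGTCA and the octamer ATGCAAAT were found for 0 of the 8, and in 13%, 1.55% and 1.6% of all windows. These letters say nothing of what binds there.

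The other members lie on chromosome 3 (Tdo2, 81957090 to 81976202, reverse), chromosome 4 (Calb1, 15881264 to 15908064, forward, and Pou3f1, 124656807 to 124660655, forward), chromosome 2 (Fibcd1, 31813290 to 31846005, reverse), chromosome 5 (Wfs1, 36966104 to 36989205, reverse), chromosome 1 (Bok, 93685660 to 93695764, forward) and chromosome 9 (Cpne4, 104547286 to 105034544, forward). Prox1 shares 133 exonic bases with the antisense gene Prox1os, Dsp shares 499 with Gm10129 and Pou3f1 shares 330 with Gm2164, each on the opposite strand. The strand setting of the counting was not given in the sources used here, so reads in these bases cannot be assigned with certainty.

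Levels per length, in CPM per kilobase of merged exon and as mean ± SD over the 24 libraries, placed a CA1 gene first. Wfs1 was at 43.2 ± 4.76, Bok at 33.8 ± 4.19, C1ql2 at 30.9 ± 5.63 and Fibcd1 at 30.0 ± 3.92. Calb1 followed at 24.3 ± 1.91, then Pou3f1 at 19.2 ± 2.04, Cpne4 at 19.0 ± 1.89 and Prox1 at 13.9 ± 2.04. Dsp, at 6.98 ± 1.87, and Tdo2, at 1.38 ± 0.259, were the lowest. Within single libraries the order was firm for some neighbours and not for others: Cpne4 was above Prox1, Prox1 above Dsp and Dsp above Tdo2 in 24 of 24, whereas C1ql2 was above Fibcd1 and Pou3f1 above Cpne4 in 14 of 24, and Bok was above C1ql2 in 17 of 24. The dentate markers thus spanned the widest range of the 3 fields, from C1ql2 near the CA1 and CA3 genes down to Tdo2.

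The markers varied between mice of 1 group more than other genes of their level. The within-group SD of log2 CPM was 0.32 for Tdo2, 0.31 for Dsp, 0.26 for C1ql2, 0.22 for Fibcd1 and 0.21 for Prox1. It was 0.18 for Bok, 0.18 for Pou3f1, 0.17 for Wfs1, 0.12 for Cpne4 and 0.10 for Calb1. Among genes within 0.5 log2 units of the same mean level, the share with a smaller SD was 99.1% for Dsp and 98.2% for C1ql2, and it was lowest for Calb1, at 78.7%. For 9 of the 10 the median SD of such genes was 0.071 to 0.074. For Tdo2, where reads are few, the median was 0.18.

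Prox1 was at 83.2, 126 and 110 CPM in naive WT mice, at 94.5, 99.7 and 117 after 15 min, at 137, 117 and 102 after 1 h and at 98.1, 102 and 126 after 3 h. In the libraries labelled Tob-KO it was at 137, 150 and 117 naive, at 119, 134 and 102 after 15 min, at 137, 113 and 121 after 1 h and at 98.5, 142 and 115 after 3 h. The genotypes overlapped at every time point, and the lowest library of the series was a naive WT library. C1ql2 was at 44.4, 62.8 and 60.5 CPM in naive WT mice, at 42.3, 59.1 and 69.0 after 15 min, at 75.2, 60.9 and 49.3 after 1 h and at 50.6, 48.4 and 63.5 after 3 h. With the label Tob-KO it was at 79.2, 77.5 and 58.7 naive, at 70.3, 84.6 and 62.9 after 15 min, at 75.2, 58.3 and 55.2 after 1 h and at 53.5, 67.5 and 56.2 after 3 h. C1ql2 too overlapped between genotypes at every time point.

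Dsp, the desmosome gene, was at 43.3, 79.1 and 65.2 CPM in naive WT mice, at 41.6, 34.2 and 60.4 after 15 min, at 81.7, 59.8 and 53.8 after 1 h and at 53.6, 66.1 and 78.4 after 3 h. In the libraries labelled Tob-KO it was at 88.3, 122 and 79.8 naive, at 60.7, 71.9 and 52.1 after 15 min, at 72.0, 68.0 and 71.3 after 1 h and at 65.4, 85.2 and 65.1 after 3 h. All 3 naive libraries labelled Tob-KO lay above the naive WT libraries, and the second of them was the highest of the series. Tdo2 ran from 3.45 to 7.22 CPM and Calb1 from 107 to 147 CPM over the 24 libraries, with overlapping genotypes at every time point.

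Of the CA1 genes, Wfs1 was at 146, 154 and 188 CPM in naive WT mice, at 167, 162 and 186 after 15 min, at 161, 176 and 182 after 1 h and at 168, 194 and 146 after 3 h. With the label Tob-KO it was at 138, 131 and 181 naive, at 188, 159 and 172 after 15 min, at 142, 162 and 153 after 1 h and at 172, 134 and 163 after 3 h. Its lowest library, at 131 CPM, was the same naive mouse that held the highest Dsp. Fibcd1 ran from 111 to 169 CPM and Pou3f1 from 60.8 to 87.9 CPM, each with overlap of the genotypes at every time point.

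Of the CA3 genes, Cpne4 was at 84.1, 106 and 93.2 CPM in naive WT mice, at 88.3, 95.5 and 95.3 after 15 min, at 116, 96.7 and 106 after 1 h and at 98.5, 101 and 102 after 3 h. In the libraries labelled Tob-KO it was at 117, 124 and 98.3 naive, at 104, 116 and 110 after 15 min, at 114, 111 and 104 after 1 h and at 97.3, 122 and 108 after 3 h. At 15 min the genotypes did not overlap. Bok ran from 49.2 to 82.1 CPM, and its genotypes did not overlap at 3 h, with 52.6, 55.6 and 60.8 CPM in WT mice and 61.6, 71.4 and 67.5 CPM with the label Tob-KO. Groups that did not overlap were thus found for 1 of 10 markers in naive mice (Dsp), 1 at 15 min (Cpne4), 0 at 1 h and 1 at 3 h (Bok), beside 11.4%, 13.3%, 11.5% and 12.1% of all genes tested.

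**Figure D1:**
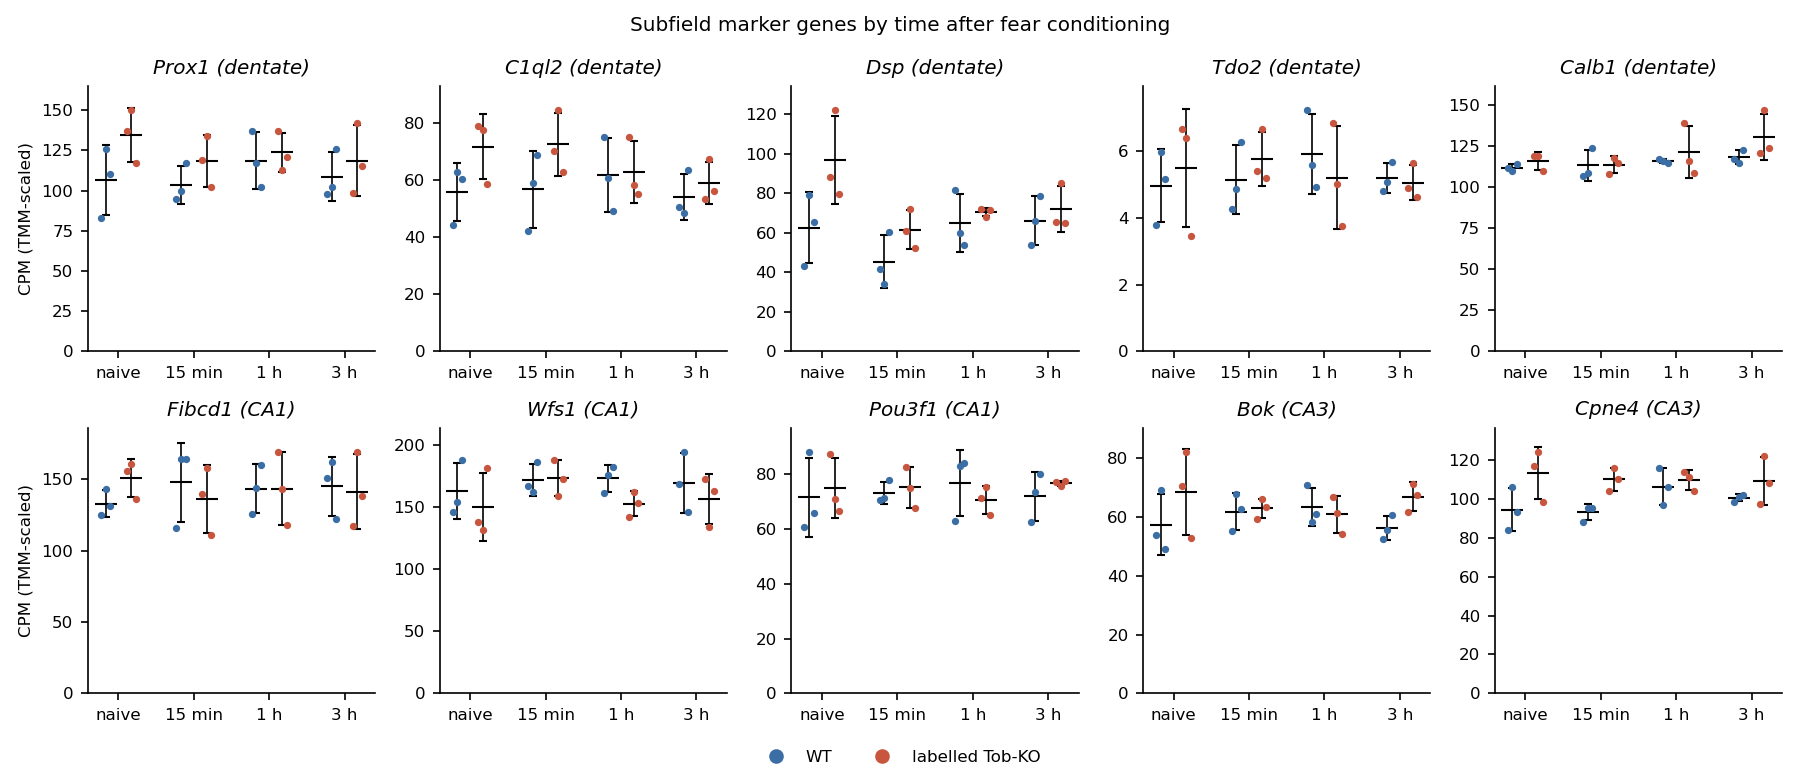
Level of each marker in CPM (vertical axis, from 0) by time after fear conditioning (horizontal axis), with 1 point per mouse, WT in blue and libraries labelled Tob-KO in red, and the mean ± SD of 3 mice in black. Dsp shows its highest point, 122 CPM, in a naive library labelled Tob-KO and its lowest, 34.2 CPM, in a WT library at 15 min, while the points of Calb1 stay between 107 and 147 CPM.

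Over all time points no marker passed the test between genotypes, and the dentate and CA3 genes lay on the higher side in the libraries labelled Tob-KO. The test was edgeR's quasi-likelihood test over 24 libraries at a Benjamini-Hochberg false discovery rate (adjusted p) of at most 0.05, and 0 of the 10 markers passed, beside 0.421% of all genes tested. At an unadjusted p under 0.05 there were 4 (Prox1, C1ql2, Dsp and Cpne4), beside 13.5% of all genes. These 4 varied together between mice, as given further on, so they are not separate results. DESeq2 called 1 marker (Cpne4, adjusted p = 0.0364) and 281 genes in all. The log2 difference was 0.33 for Dsp (SE 0.11, adjusted p = 0.198), 0.22 for C1ql2 (SE 0.09, adjusted p = 0.316) and 0.17 for Prox1 (SE 0.08, adjusted p = 0.33). Cpne4 had the smallest p of the 10, with a difference of 0.17 (SE 0.05, adjusted p = 0.114 by edgeR), and was called in 2 of 31 alternatives, with adjusted p from 0.0364 to 0.221. Bok differed by 0.12 (SE 0.07), Calb1 by 0.07 (SE 0.04), Tdo2 by 0.02 (SE 0.12), Pou3f1 by 0.02 (SE 0.07) and Fibcd1 by 0.01 (SE 0.08). Wfs1 was the only one of the 10 with a negative value, -0.10 (SE 0.06). The median difference was 0.17 over the dentate genes, 0.01 over the CA1 genes and 0.14 over the CA3 genes, beside 0.00 over all genes tested.

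Further markers of each field, 20 genes in 3 lists, gave these counts for the same comparison. None of the 8 further dentate genes passed, and all 8 had positive values, with a median of 0.12. None of the 6 further CA3 genes passed, and 6 of 6 were positive, with a median of 0.13. Among the 6 further CA1 genes 0 passed and 2 were positive, with a median of -0.06. The choroid plexus list moved with the same contrast: 0 of its 10 genes passed, 10 of 10 were positive with a median of 1.43, and the summed level ran from 25.6 to 2880 CPM in WT libraries and from 53 to 4910 CPM in the others. Of the 6 immediate early genes, which neurons switch on within minutes of activity, 0 passed, 0 were positive with a median of -0.41, and 6 had an unadjusted p under 0.05. None of the 5 CA2 genes passed and 5 of 5 were positive, with a median of 0.12. The part of these lists in the values of the markers was not tested. With the choroid plexus score as a covariate, in a fit that was not planned, the difference of Cpne4 was 0.17 (adjusted p = 0.157 by edgeR's quasi-likelihood test).

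At single time points, edgeR's exact test with a limit of 2 on the fold change called 0 of 10 markers at each of the 4. The same test called 0.0218% of all genes in naive mice, 0.555% at 15 min, 0.033% at 1 h and 0.0274% at 3 h, and DESeq2 called 0 markers at each. Unadjusted p under 0.05 was reached by 5 of 10 markers in naive mice, 3 at 15 min, 1 at 1 h and 1 at 3 h, beside 4.04%, 8.05%, 5.34% and 3.97% of all genes tested. At 1 h and 3 h the share of the markers, 1 of 10, was thus near that of all genes. In the quasi-likelihood fit to 24 libraries the counts were 3 of 10 in naive mice, 1 at 15 min, 0 at 1 h and 0 at 3 h. All genes had 1729, 2065, 820 and 1042 of 19500 there, so at 15 min too the markers were near the background. Several of these markers varied together between mice, as given further on, so they are not separate results. Each SE at a single time point came from a quasi-likelihood fit to the libraries of that time point, not from the exact test. In naive mice the log2 difference was 0.63 for Dsp (SE 0.23, adjusted p = 0.975 by the exact test), 0.36 for C1ql2 (SE 0.15), 0.34 for Prox1 (SE 0.15) and 0.26 for Cpne4 (SE 0.11). At the 15 min point Dsp differed by 0.44 (SE 0.19) and Cpne4 by 0.24 (SE 0.06, adjusted p = 0.133 by the exact test). At 1 h the one marker with p under 0.05 was Wfs1, at -0.18 (SE 0.06), and at 3 h it was Bok, at 0.24 (SE 0.07). The interaction of genotype and time, tested jointly over the 3 time points by the quasi-likelihood test, passed for 0 markers and for 0% of all genes, and DESeq2's likelihood ratio test called 0 markers. Unadjusted p for the interaction was under 0.05 for 0 of the 10, beside 4.09% of all genes, and ran from 0.259 to 0.727.

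**Figure D2:**
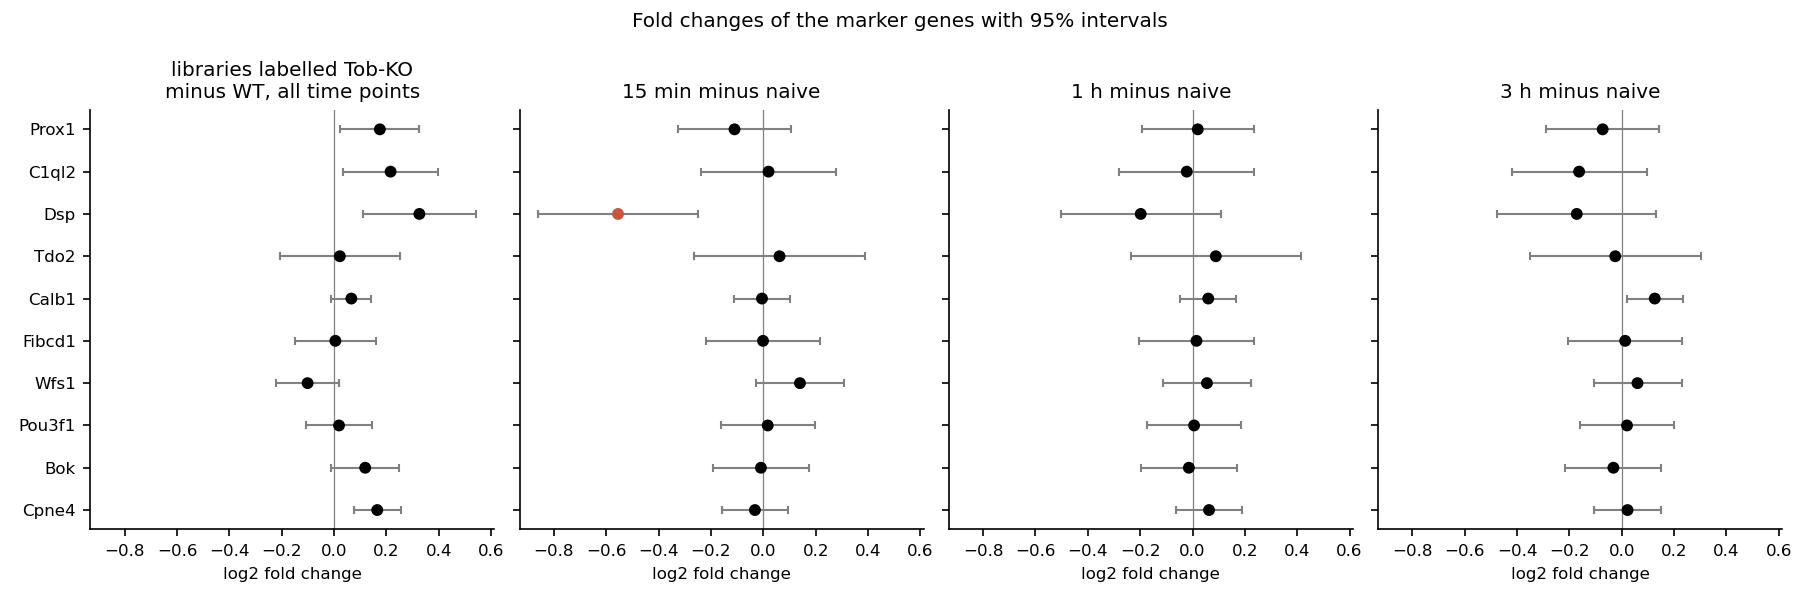
Log2 fold change of each marker (horizontal axis) with its 95% interval, for libraries labelled Tob-KO against WT over all time points and for each time after conditioning against naive over both genotypes; red marks an adjusted p of at most 0.05. Dsp at 15 min, at -0.55, is the single red point, and the intervals of Prox1, C1ql2, Dsp and Cpne4 in the first panel lie above 0 although their adjusted p did not pass.

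Over time, Dsp was the single marker to pass. With both genotypes averaged, it fell by 0.55 on the log2 scale at 15 min against naive (SE 0.16, interval -0.86 to -0.25, adjusted p = 0.047 by edgeR's quasi-likelihood test). This was 1 of 10 markers at 15 min, beside 4.35% of all genes tested, and it was also the 1 marker with an unadjusted p under 0.05, beside 20.2% of all genes. The other 9 ran from -0.11 for Prox1 to 0.14 for Wfs1, with adjusted p of at least 0.376 and interval bounds from -0.33 to 0.39. At 1 h 0 markers passed, beside 5.89% of all genes, with 0 at an unadjusted p under 0.05 beside 19.7%, and Dsp was at -0.20 (SE 0.16, adjusted p = 0.529). At 3 h 0 markers passed, beside 0% of all genes, and Calb1 alone had an unadjusted p under 0.05, at 0.13 (SE 0.05, adjusted p = 0.507), a count of 1 of 10 beside 8.95% of all genes. DESeq2 called Dsp at 15 min (adjusted p = 0.0273) and 0 markers at 1 h and 3 h. The 3 contrasts share the naive libraries.

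Within WT mice 0 markers passed at 15 min, 1 h or 3 h, beside 0.0462%, 0.185% and 0% of all genes, and 0 had an unadjusted p under 0.05, beside 8.71%, 10.8% and 3.99%. Within the libraries labelled Tob-KO 0 passed at each time, beside 2.51%, 1.13% and 0% of all genes. At an unadjusted p under 0.05 there were 1 (Dsp), 0 and 1 (Calb1), beside 17.3%, 15.6% and 10.6% of all genes, so these counts were no higher than the background. Without the third library labelled Tob-KO at 15 min the genes called at 15 min with that label fell from 490 to 40, and without the second at 1 h those at 1 h fell from 220 to 0. DESeq2 called 0 markers in all 6 of these comparisons. The fall of Dsp at 15 min was -0.46 in WT (SE 0.22, adjusted p = 0.575) and -0.65 with the label Tob-KO (SE 0.22, adjusted p = 0.117), and the test of the interaction did not resolve a difference between them (adjusted p = 0.953). The call on Dsp stands at the edge of its threshold: it was lost in 16 of 24 fits that each left out 1 library, where the adjusted p ran from 0.012 to 0.147 and the fall from -0.68 to -0.45. Without the naive library labelled Tob-KO and the WT library at 15 min that hold its highest and lowest values, it was -0.37 (SE 0.16, adjusted p = 0.272).

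All 6 immediate early genes rose at 15 min, among them Fos by 2.12 (SE 0.21) and Npas4 by 1.62 (SE 0.15) on the log2 scale. Of the 8 further dentate genes 1 fell at 15 min, Pdzd2, by 0.43 (SE 0.07, adjusted p = 0.00265). Among the 6 further CA3 genes Cdh24 fell, by 0.81 at 15 min (SE 0.14, adjusted p = 0.00265) and by 0.59 at 1 h (SE 0.14, adjusted p = 0.0133). None of the 6 further CA1 genes passed at 15 min or 1 h. Rorb of the neocortex list, 1 of 5, rose at 15 min by 0.48 (SE 0.10), and its list had a summed level of 73.6 to 135 CPM in naive libraries and 92.5 to 159 CPM at 15 min. Lef1 of the thalamus list, 1 of 5, rose by 0.52 (SE 0.12, adjusted p = 0.0198), and Aqp4, the water channel of astrocytes, 1 of 4 on their list, rose by 0.33 (SE 0.05, adjusted p = 0.000675). The part of these genes' tissues and cells in the fall of Dsp was not tested.

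Dsp was then set against Prox1, C1ql2 and Tdo2, without the dentate gene Calb1, a comparison chosen after its values were seen. The log2 level of Dsp minus the mean of Prox1, C1ql2 and Tdo2 was 0.84, 1.13 and 1.00 in naive WT mice and 1.08, 1.53 and 1.47 in naive libraries labelled Tob-KO. After 15 min the values were 0.69, 0.15 and 0.70 in WT and 0.77, 0.76 and 0.69 in the others. All 6 libraries at 15 min lay below all 6 naive libraries. The difference of means was -0.55, and the two-sided exact permutation test within genotypes gave p = 0.005, the smallest that its 400 arrangements allow. It was -0.47 in WT and -0.62 with the label Tob-KO, where 3 mice against 3 cannot give an exact p below 0.1. Against naive the ratio was -0.21 at 1 h (exact permutation p = 0.08) and -0.08 at 3 h (exact permutation p = 0.425). Set against Prox1 alone, the log2 level of Dsp ran from -0.94 to -0.3 in naive libraries and from -1.54 to -0.89 at 15 min. These overlapped, so the full separation depended on the genes chosen. Since the same libraries chose the comparison with the mean of Prox1, C1ql2 and Tdo2, its p is not independent evidence.

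The choroid plexus genes moved with the 15 min contrast. None of the 10 passed, 0 were positive with a median log2 difference of -2.41, and the summed level ran from 43.5 to 4910 CPM in naive libraries and from 25.6 to 3340 CPM at 15 min. With the choroid plexus score as a covariate, in a fit that was not planned, Dsp was at -0.57 (SE 0.16, adjusted p = 0.046 by edgeR's quasi-likelihood test). Of the WT libraries 2 were high and 1 low in choroid plexus genes when naive, and 0 were high and 3 low at 15 min. The score thus went with time in WT mice, and the fit rests there on a slope shared by all groups. In libraries high in choroid plexus genes the mean log2 CPM of Dsp was 6.25 naive (4 libraries) and 5.94 at 15 min (2 libraries, 0 of them WT). In those low in them it was 6.25 naive (2 libraries) and 5.58 at 15 min (4 libraries, 3 of them WT). The part of choroid plexus in the fall of Dsp was not tested.

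**Figure D3:**
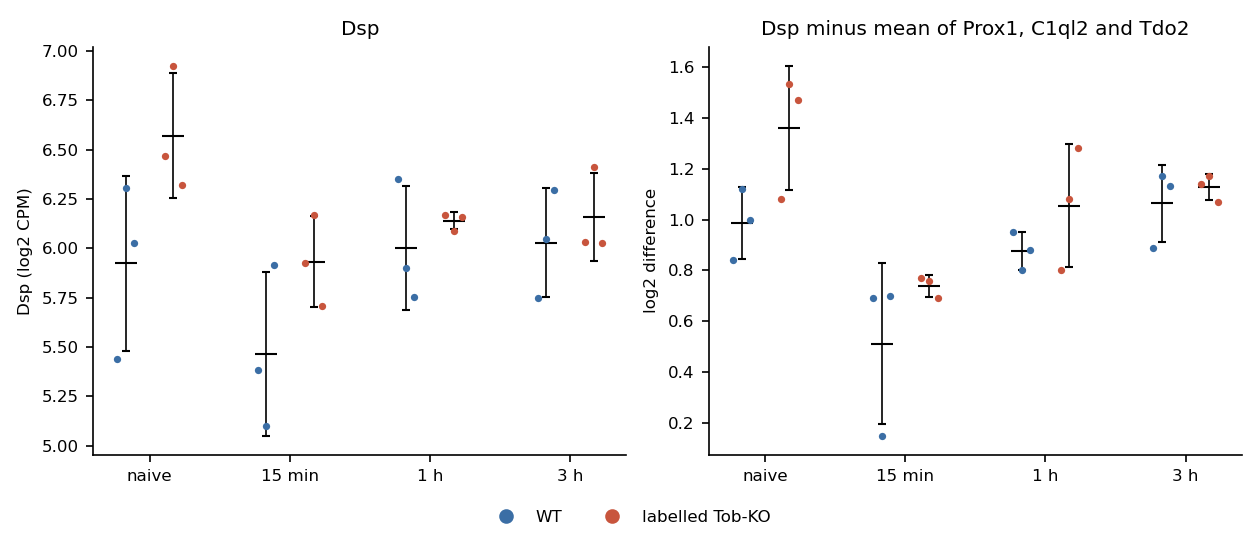
Left, the log2 CPM of Dsp, and right, the log2 level of Dsp minus the mean of Prox1, C1ql2 and Tdo2 (vertical axes, not from 0), by time after conditioning; points are mice, WT in blue and libraries labelled Tob-KO in red, and black marks are mean ± SD of 3. On the right the 15 min points, 0.15 to 0.77, lie below every naive point, 0.84 to 1.53, while on the left the same times overlap.

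Subfield balance was described by the difference of the mean centred log2 level of the markers of 1 field and that of another, in each library. Dentate minus CA1 ran from -0.35 to 0.44 over the 24 libraries. It was -0.21, 0.04 and -0.01 in naive WT mice, -0.27, -0.33 and -0.08 at 15 min, 0.40, -0.11 and -0.35 at 1 h and -0.15, -0.26 and 0.21 at 3 h. In the libraries labelled Tob-KO it was 0.23, 0.44 and -0.07 naive, -0.11, 0.18 and 0.03 at 15 min, 0.26, -0.04 and 0.07 at 1 h and -0.05, 0.25 and -0.06 at 3 h. The full range of the series was therefore nearly spanned by the 3 WT mice at 1 h alone. Libraries labelled Tob-KO averaged 0.19 above WT, with 12 libraries each. The within-group SD was 0.22, which is the spread of single libraries and not of such a mean, so it does not show how firm the difference is. The 2 genotypes overlapped at each of the 4 time points, with differences of 0.26 naive, 0.26 at 15 min, 0.12 at 1 h and 0.11 at 3 h. No p is given, since the markers were chosen with earlier results known.

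Dentate minus CA3 was the steadiest balance, with a within-group SD of 0.14, a range of -0.28 to 0.22 and a genotype difference of 0.02. CA1 minus CA3 ran from -0.39 to 0.25, with a within-group SD of 0.18 and a genotype difference of -0.17, and the genotypes overlapped at every time point in both. The second naive library labelled Tob-KO held the extreme of dentate minus CA1, 0.44, and of CA1 minus CA3, -0.39. In the same library the score of the subiculum genes was -0.79, that of the further CA1 genes -0.35 and that of the neocortex genes -0.58, the lowest of the series in each. Their part in the balance was not tested.

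**Figure D4:**
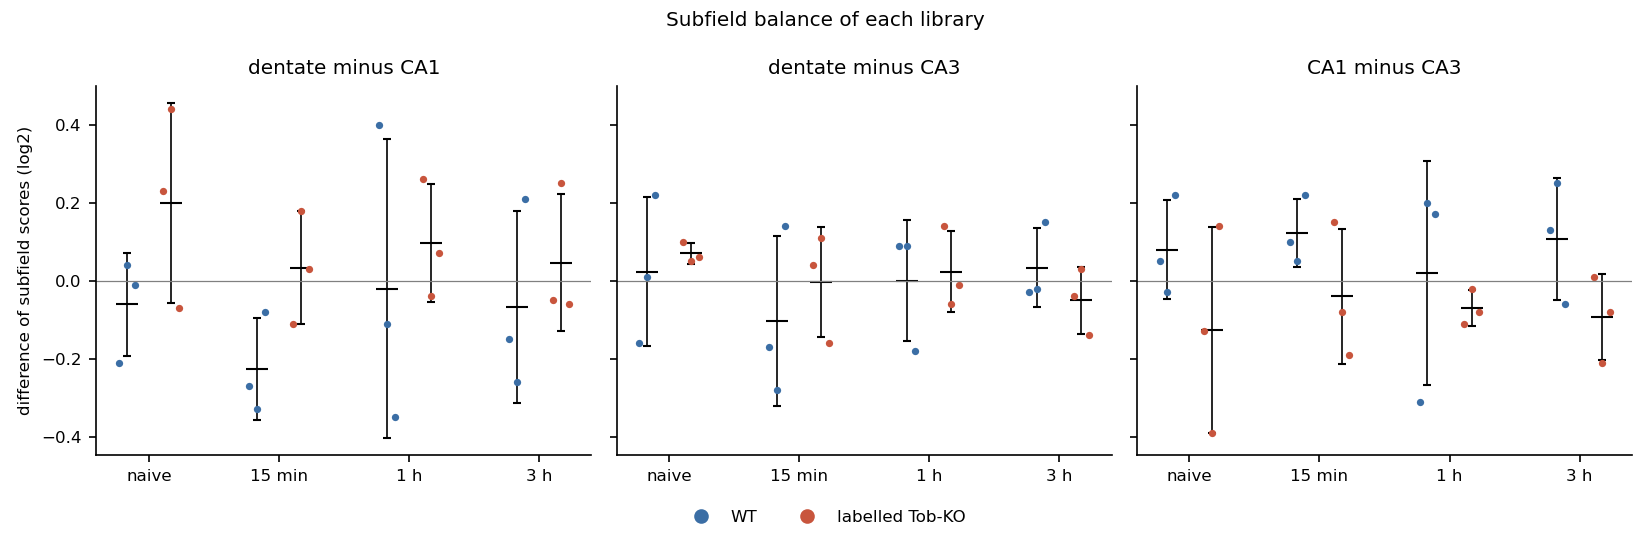
Difference of the mean centred log2 levels of 2 fields' markers (vertical axis) by time after conditioning, for dentate minus CA1, dentate minus CA3 and CA1 minus CA3; points are mice, WT in blue and libraries labelled Tob-KO in red, with mean ± SD of 3 in black. Single mice of 1 group spread most in WT at 1 h in the first panel, from -0.35 to 0.40, and single mice of the genotypes overlap throughout.

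Whether markers of 1 field rise and fall together was read from the deviations of log2 CPM from the group means over the 24 libraries, in 45 pairs. The dentate genes did so: all 10 pairs were positive, with a median r of 0.72 and a range of 0.45 to 0.89. Prox1 and C1ql2 had r = 0.89 and rho = 0.88 over 24 libraries (permutation p = 4e-05 and 5e-05, that of r adjusted over all genes 0.0108 for Prox1 and 0.0207 for C1ql2), and r = 0.88 without the 2 libraries farthest in Prox1. Prox1 and Dsp had r = 0.88 and rho = 0.86 (permutation p = 1e-05, the smallest possible, and 3e-05), and r = 0.86 without the 2 farthest. C1ql2 and Tdo2 had r = 0.88 and rho = 0.88 (permutation p = 1e-05 for both), and each was the fifth of 19499 genes in the other's order. Within the libraries with high and with low choroid plexus genes, r was 0.93 and 0.81 for Prox1 and C1ql2, 0.93 and 0.83 for Prox1 and Dsp, and 0.91 and 0.86 for C1ql2 and Tdo2. Calb1 was the loosest, at 0.45 with Dsp and 0.59 with Prox1.

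The CA3 pair was as tight, with r = 0.86 and rho = 0.90 for Bok and Cpne4 (permutation p = 2e-05 and 1e-05, adjusted over all genes 0.00639), and r = 0.79 without the 2 farthest libraries. Between the dentate and the CA3 genes all 10 pairs were positive too, with a median r of 0.66 and a range of 0.45 to 0.78. The p of a pair was adjusted over all genes once for each of its 2 genes. Of the 10 dentate pairs 5 passed for both genes and 2 for 1 of them, C1ql2 with Calb1 (adjusted 0.0399 for C1ql2 and 0.242 for Calb1) and Tdo2 with Calb1 (0.0489 for Tdo2 and 0.257 for Calb1), each by permutation. Of the 10 dentate and CA3 pairs 2 passed for both genes and 1 for 1 of them, C1ql2 with Cpne4 (adjusted permutation p = 0.0508 for C1ql2 and 0.0298 for Cpne4). Of the 15 dentate and CA1 pairs, the 6 CA1 and CA3 pairs and the 3 CA1 pairs, 0 passed for either gene. The share of all genes that passed was 3.14% for Prox1, 1.82% for C1ql2, 1.44% for Dsp, 1.54% for Tdo2 and 0% for Calb1. It was 3.74% for Bok and 3.98% for Cpne4.

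The CA1 genes did not form such a set. Fibcd1 and Pou3f1 had r = 0.35, Wfs1 and Fibcd1 -0.12 and Wfs1 and Pou3f1 -0.02, a median of -0.02 over the 3 pairs. All 9 pairs of Wfs1 were negative, and there were no other negative pairs among the 45. The most negative was Wfs1 with Bok, at r = -0.69 and rho = -0.66 (permutation p = 0.00498 and 0.00416, adjusted over all genes 0.0825 for Bok and 0.258 for Wfs1), with -0.54 without the 2 farthest libraries and -0.71 and -0.70 within the sets of high and low choroid plexus genes. With the dentate genes Wfs1 ran from -0.46 for Prox1 to -0.24 for Dsp, whereas Fibcd1 ran from 0.21 to 0.54. A CA1 score averaged over the 3 genes therefore joined genes that moved in different ways.

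**Figure D5:**
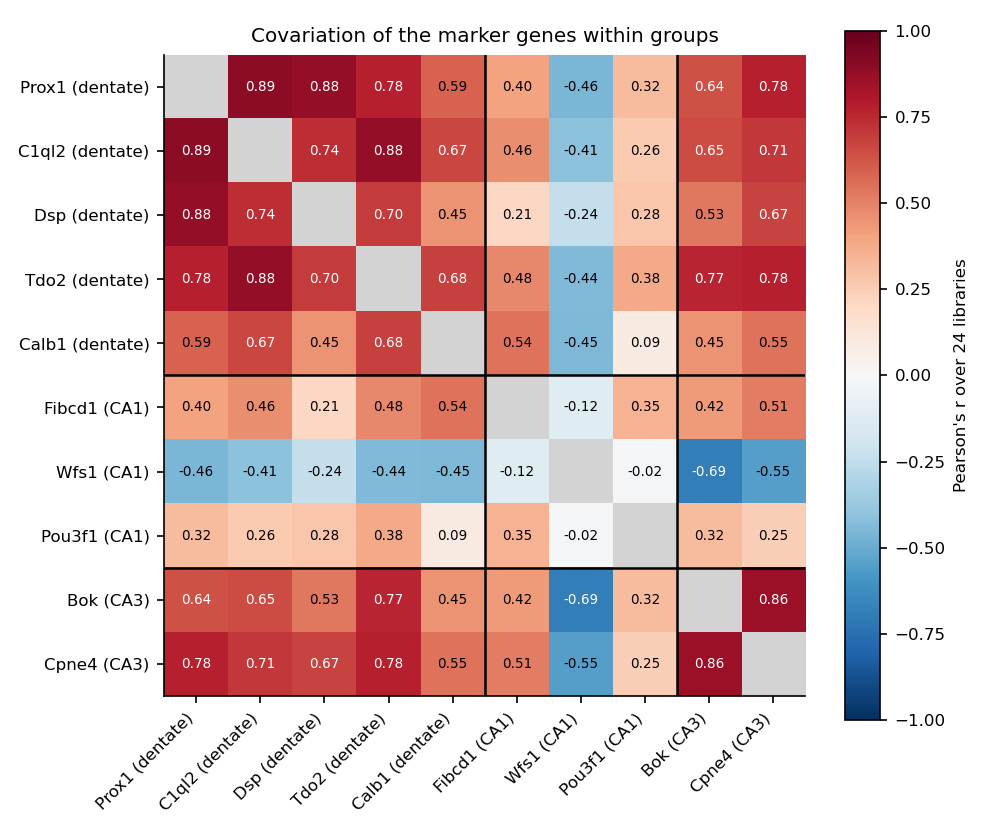
Pearson's r (colour and printed value) of each pair of markers over 24 libraries, from deviations of log2 CPM from the group means, with lines between the fields. The dentate block, 0.45 to 0.89, and the CA3 pair, 0.86, are red, the CA1 block, -0.12 to 0.35, is pale, and the row of Wfs1 alone is blue, down to -0.69 with Bok.

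With Prox1, 8 of 8 further dentate genes were positive with a median r of 0.75, beside 0.01 over all genes, led by Lct at 0.92, Dock10 at 0.90 and Plk5 at 0.89. Pdzd2, at 0.11, was the least like Prox1. With Cpne4, 5 of 6 further CA3 genes were positive with a median of 0.74, among them Npy2r, a neuropeptide Y receptor, at 0.90, while Coch was at -0.56 (adjusted over all genes, 5 of the 8 passed for Prox1 and 3 of the 6 for Cpne4). High values were not particular to the own field, and neither were passing ones. For Prox1, 3 of 4 pan-excitatory and 2 of 6 further CA3 genes passed, beside 3.14% of all genes. For Cpne4, 2 of 4 pan-excitatory, 2 of 4 astrocyte and 2 of 8 further dentate genes passed, beside 3.98%. The astrocyte genes had a median r of 0.645 with Cpne4, with 3 of 4 positive. The 4 pan-excitatory genes had a median r of 0.77 with Prox1 and 0.72 with Cpne4, the further CA3 genes had 0.69 with Prox1, the further dentate genes had 0.61 with Cpne4, and the 4 oligodendrocyte genes had 0.70 with Bok. The 4 pan-neuronal genes went the other way, with a median r of -0.43 with Prox1 and -0.51 with Cpne4, and 1 of 4 positive for each. The further CA1 genes fell on both sides. Mpped1 (0.68) and Nov (0.57) went with Wfs1 and were negative with Prox1, whereas Gpr161, Ndst4 and Man1a had 0.75, 0.58 and 0.71 with Fibcd1 and were positive with Prox1. Over the 24 libraries the subiculum genes had a median r of 0.71 with Wfs1 and of -0.78 with Bok, on the same 3 genes. For each marker 1 of the 3 had the other sign, with -0.06 for Wfs1 and 0.12 for Bok, and adjusted over all genes 0 passed for Wfs1 and 1 for Bok.

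Beyond the lists, the 3 genes nearest to each marker among 11644 genes of at least 5 CPM were found. For Prox1 they were Rnf112 (r = 0.94), Sema5a (0.93) and Faah (0.93), and for C1ql2 they were Kctd4 (0.94), Sema5a (0.90) and Parvg (0.88). Dsp was nearest to Kdm4c (0.93), Ano3 (0.92) and Anxa11 (0.92), and Tdo2 to Map2k1 (0.90), Rasl11a (0.89) and Nr3c2 (0.88), the mineralocorticoid receptor. Fibcd1 was nearest to St6galnac5 (0.94), Camkv (0.92) and Sertm1 (0.89). Bok was nearest to Sdcbp (0.93), Cplx2 (0.93) and Cabp7 (0.93), and Cpne4 to Dpf3 (0.94), Il16 (0.93) and Hpca (0.91). All of these 21 values had a permutation p adjusted over all genes of at most 0.0377.

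Adjusted over all genes for Calb1, for Wfs1 and for Pou3f1 themselves, no gene passed. Among the nearest were Mageh1 (0.85) and Trip4 (0.84) for Calb1, Cbln1 (0.85), Dsc3 (0.84) and Tbc1d8 (0.84) for Wfs1, and Kcnab1 (0.83), Dkk3 (0.81) and Pou3f3 (0.81) for Pou3f1, with adjusted values of 0.111 to 0.333. The number of genes that passed was 777 for Cpne4, 729 for Bok, 613 for Prox1, 355 for C1ql2, 301 for Tdo2, 281 for Dsp and 6 for Fibcd1. At an unadjusted permutation p under 0.05 the counts for the 3 without a passing gene were 2130, 2135 and 1931 of 19499.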

How the data were processed

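Poly(A) RNA was sequenced from the hippocampi of 24 mice. Per the labels and the study's methods, the authors made directional libraries, mapped reads to GRCm38 with STAR 2.6.1d, counted them with HTSeq 0.9.0 and deposited raw counts per gene, without normalization. The headers of the count columns say that duplicates were marked. Whether marked reads were counted, the annotation release and the strand setting were not given in the sources used here.

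Genotype, time and replicate came from the sample labels. Counts were normalized by TMM in edgeR 4.0.16 (limma 3.58.1, R 4.3.3) after a filter of 0.2 CPM in 2 libraries. edgeR's quasi-likelihood test was fitted to 24 libraries with 1 mean per group, and p was adjusted by Benjamini-Hochberg over all genes (0.05). Genotypes at a time point were compared by edgeR's exact test on 6 libraries with the study's limits, a fold change of 2 among them. Log2 CPM used a prior count of 2. Correlations used 100000 permutations within groups (Python 3.11.15, NumPy 2.4.6, pandas 2.3.3, SciPy 1.17.1). The fits were tested on simulated data. Levels of the 24 libraries rest on the depth given with them, and counting error covers reads, not molecules, as no molecular identifiers were used. Labels do not say that mice came from separate litters, so p-values measure the spread between these mice.

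The genes named are the 10 markers, Tob1, genes of marker lists that pass a test or that illustrate a list's range, and the 3 genes nearest to each marker at 5 CPM or more. The markers and lists were chosen with earlier results of these data known. Nectin3 is listed in the table as Pvrl3. Some genes that this rule would name are not reported here. Alternatives were DESeq2 1.42.0, other scalings and filters, a replicate block, fits on 6 libraries, other prior counts and leaving out each library.

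By the rule used, that every same-numbered pair of a comparison exceed 0.1, no shared deviation of same-numbered mice was found. Over 10 comparisons of groups the correlation of deviations ran from -0.418 to 0.36, and in 0 comparisons was every pair over 0.1. Naive and 15 min with the label Tob-KO came nearest, at 0.319, 0.36 and 0.056. The times after conditioning were not compared with each other, and a weaker sharing could go unseen by this rule.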

Additional observations from a re-analysis of the deposited data

Results flagged for a closer look

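In 2 cases every library of one group lay on one side of the mean of the group it was compared with, and every library of the other on the opposite side; single libraries of the groups compared still overlapped. Bok at 1 h against naive had a log2 change of 0.15 in WT and -0.15 in the libraries labelled Tob-KO, a difference of -0.31. Pou3f1 differed between libraries labelled Tob-KO and WT by -0.11 at 1 h and by 0.10 at 3 h, a difference of 0.21. These pairs of changes were not tested singly, and in the joint test of the interaction by edgeR's quasi-likelihood test the adjusted p was 0.953 for Bok and 0.971 for Pou3f1. Groups of 3 mice were not searched for outlying samples.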

How the results depend on the processing

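The number of markers called was unchanged under each alternative in 13 of the 15 comparisons. For 15 min against naive the count of 1, Dsp, became 0 with the replicate block, where its adjusted p was 0.061 by edgeR's quasi-likelihood test, and 0 without the 2 libraries at its extremes, an alternative chosen after seeing the data. Without single libraries that count ran from 0 to 1. It stayed at 1 with other scalings, other filters, DESeq2 and the choroid plexus covariate. For the genotype over all time points the count of 0 became 1, Cpne4, with DESeq2, and ran from 0 to 1 without single libraries, being 1 without the third naive library labelled Tob-KO. The replicate block, run although no pairing of mice by replicate number was found, changed no other count of markers. Of 1270 marker fold changes recomputed, 0 reversed with a call. A reversal needed a call in the main or the alternative fit, and calls were few, so this says little of direction. For the genotype over all time points, 3 signs changed without single libraries. They were those of Fibcd1 (-0.033 to 0.037), Tdo2 (-0.04 to 0.084) and Pou3f1 (-0.012 to 0.063), while those of the other markers held.

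The correlation of Bok and Cpne4 was 0.784 with additive means of genotype and time. The median r ran without single libraries from 0.045 to 0.508 for CA1 with CA3 genes and from 0.141 to 0.516 for dentate with CA1 genes, the lowest CA1 with CA3 value without the second naive WT library and the highest dentate with CA1 value without the first WT library at 1 h. The ratio of Dsp to Prox1, C1ql2 and Tdo2 fell by 0.457 to 0.617 without single libraries.

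Counts over all genes moved more. The genotype over all time points gave 281 genes with DESeq2 against 82, and 51 with the choroid plexus covariate. At 15 min against naive DESeq2 gave 1298 against 848, and the count was 255 without the 2 libraries. At 15 min between genotypes the exact test called 102, DESeq2 35 and the quasi-likelihood test 0. At 3 h against naive DESeq2 called 22 against 0. Without single libraries the count ran from 31 to 135 for the genotype over all time points, from 317 to 1315 at 15 min and 572 to 1262 at 1 h against naive, from 40 to 817 and 0 to 411 for the same times within the label Tob-KO, and from 1 to 15 and 0 to 69 within WT. Between genotypes it ran from 4 to 53 in naive mice, 30 to 252 at 15 min, 4 to 155 at 1 h and 3 to 16 at 3 h. The lowest count at 15 min against naive came without the third library labelled Tob-KO at 15 min and the lowest at 1 h without the second at 1 h. Precision differed between markers. Against naive, the distance from a log2 fold change to either end of its 95% interval ran from 0.11 for Calb1 to 0.33 for Tdo2, the sparsest marker, with 6 mice against 6, and from 0.15 to 0.46 for the same genes with 3 against 3.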
